A study of Mus musculus with 12 samples.

Results

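The 9 genes described here belong to the complement system, a set of blood and tissue proteins that tags particles and damaged cells and draws in leukocytes. They are C1qa, C1qb and C1qc, C3, C4b, Cfb, Cfp, C3ar1 and C5ar1, chosen by symbol as the C1q chains, the C3 and C4 proteins, factor B, properdin and the anaphylatoxin receptors. All 9 of 9 were found among the 55487 mouse genes of the tables, and all 9 passed the filter on low counts. RNA had been taken from whole lungs of 12 wild-type C57BL/6J male mice aged 10 weeks, with 4 mice in each of 3 groups. All 12 mice had received oropharyngeal bleomycin, an antitumour agent that damages alveolar epithelium and causes lung fibrosis, at 0.0125 U per mouse. The NP group was studied at day 21 after 5 daily retro-orbital doses of 2 mg of nanoparticles in phosphate-buffered saline, made of poly(lactide-co-glycolide) with poly(ethylene-alt-maleic anhydride) as surfactant, given from day 14 to day 18. The vehicle group was studied at day 21 after saline alone, and the day 14 group was taken before any treatment. No uninjured lung was among the samples, so a level is high or low only against day 14 or vehicle.

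C1q is the recognition protein of the classical pathway, and it is built from the products of the 3 genes C1qa, C1qb and C1qc. It binds immune complexes and dying cells and sets off the cleavage of C4 and then of C3, the protein on which all pathways converge. Factor B, encoded by Cfb, and properdin, encoded by Cfp, form and steady the alternative pathway enzyme that cleaves more C3. The fragments C3a and C5a act on the receptors encoded by C3ar1 and C5ar1, which sit mainly on myeloid cells. In lung, macrophages are the known source of C1q, while alveolar type 2 cells and other structural cells are known to make C3.

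The 3 C1q genes lie side by side on the minus strand of chromosome 4, in 18.7 kb of GRCm38. In GENCODE M21 gene models each is protein-coding. C1qb (ENSMUSG00000036905) spans 136880129 to 136886187, C1qc (ENSMUSG00000036896) 136889804 to 136893065 and C1qa (ENSMUSG00000036887) 136895917 to 136898803. C4b (ENSMUSG00000073418, 34728380 to 34743882), Cfb (ENSMUSG00000090231, 34856374 to 34862518) and C3 (ENSMUSG00000024164, 57203970 to 57228136) are protein-coding genes of chromosome 17. Cfp (ENSMUSG00000001128) is on chromosome X at 20925454 to 20931555, C3ar1 (ENSMUSG00000040552) on chromosome 6 at 122847138 to 122856161 and C5ar1 (ENSMUSG00000049130) on chromosome 7 at 16246743 to 16259540. Cfb overlaps the predicted gene Gm20547 on the same strand, which held 14 counts over the 12 libraries against 23112 for Cfb. C4b has a near-identical copy, C4a, which was counted 10 to 29 times per library against 6361 to 16200 for C4b. Reads could have been split between these copies, so the C4b level is uncertain to that extent.

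The promoters of C1qb, C1qc and Cfp are shown because these genes fell between day 14 and day 21 in vehicle lungs. RefSeq promoter windows on GRCm38.p6, from 250 bases before the start to 50 after it, were at hand for 6 of the 9 genes. RefSeq starts can differ from those of GENCODE M21. The C1qc gene model of GENCODE M21 reaches 136893065, so part of its window before the RefSeq start lies inside that model. Capitals mark GAGGAA or its reverse complement, the core of the box bound by PU.1, a transcription factor of macrophages. The windows are chr4:136886151-136886450, chr4:136892865-136893164 and chrX:20931506-20931805, all on the minus strand and written 5′ to 3′.
C1qb: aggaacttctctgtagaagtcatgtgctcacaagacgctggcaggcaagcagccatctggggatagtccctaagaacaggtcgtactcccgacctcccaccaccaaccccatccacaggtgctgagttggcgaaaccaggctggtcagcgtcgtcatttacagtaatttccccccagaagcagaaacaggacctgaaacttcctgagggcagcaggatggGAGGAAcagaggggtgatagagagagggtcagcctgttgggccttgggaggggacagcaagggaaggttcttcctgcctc
C1qc: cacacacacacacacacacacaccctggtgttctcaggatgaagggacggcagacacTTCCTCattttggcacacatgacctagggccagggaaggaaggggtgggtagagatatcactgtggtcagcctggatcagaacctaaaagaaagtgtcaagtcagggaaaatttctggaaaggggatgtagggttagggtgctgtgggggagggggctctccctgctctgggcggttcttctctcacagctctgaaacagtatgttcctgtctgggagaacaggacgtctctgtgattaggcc
Cfp: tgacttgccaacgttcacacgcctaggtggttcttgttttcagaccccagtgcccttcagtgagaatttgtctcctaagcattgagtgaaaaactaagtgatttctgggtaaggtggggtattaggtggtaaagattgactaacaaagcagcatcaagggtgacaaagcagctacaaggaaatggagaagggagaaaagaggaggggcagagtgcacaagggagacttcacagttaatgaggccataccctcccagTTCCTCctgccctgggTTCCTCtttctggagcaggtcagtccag
The PU.1 box letters occurred in these 3 windows and in 28.3% of the 32851 windows of the table, searched on both strands. The letters were not found in the windows of C3, C3ar1 and C5ar1. A kappa B pattern, GGG and TTCC parted by 3 bases of any kind, was found in the C3ar1 window and in 5.56% of all windows. An interferon-stimulated pattern, a pair of GAAA parted by 2 bases of any kind, and the GAS pattern TTCNNNGAA, held by 3.44% and 8.30% of all windows, were found in none of the 6. A match is a description of these letters and not a binding site.

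Expected counts per library summed to 24138582 to 28910459 in NP lungs, 28001006 to 36208498 in vehicle lungs and 25706260 to 42714693 at day 14. The lowest count of any of the 9 genes in any library was 187, for C5ar1. Markers of lung tissue were abundant, with 44660 to 46470 TPM in NP lungs, 44560 to 51240 in vehicle lungs and 37880 to 43480 at day 14 summed over 8 alveolar type 2 cell genes (TPM is the deposited share of a library's transcripts, scaled for gene length). A set of 6 liver markers summed to 0.56 to 2.58 TPM, and 5 of them were too low to be tested. Day 14 mouse 2 had 128.6 TPM over 6 B and T cell markers, against 58.34 to 81.22 TPM in the other day 14 libraries. Over 6 monocyte markers other than Ace it had 462.2 TPM, against 181.6 to 282.9 TPM in those libraries. The NP library of mouse 3 stood apart in immune genes. Its 9 neutrophil markers summed to 5755 TPM, against 415 to 457.8 TPM in the other 3 NP libraries, 248.1 to 581 TPM in vehicle libraries and 139.5 to 359 TPM at day 14. Fold changes and calls of the 9 genes that rest on that library are given with and without it.

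Levels are in TPM and folds and tests come from the expected counts. At day 14 the C1q genes were among the most abundant of the 9. C1qb averaged 290.4 ± 33.8 TPM, C1qa 266 ± 31.0, C3 237 ± 49.96 and C1qc 167 ± 16.3 TPM (SD, n = 4 mice). C4b followed with 119.7 ± 11.7 TPM, Cfb with 50.9 ± 3.88 and Cfp with 27.7 ± 3.52 TPM. The receptors were lowest, C3ar1 at 12.4 ± 1.24 and C5ar1 at 9.38 ± 2.05 TPM. In this order C1qb, C1qa, C3 and C1qc each overlapped with the next of these 4 genes in range, and every later pair of neighbours was separate. In vehicle lungs at day 21, C3 led with 231 ± 15.03 TPM and its range lay wholly above that of C1qb (157 ± 23.0). C1qa followed at 154 ± 20.4, C4b at 106 ± 3.52 and C1qc at 95.4 ± 11.2 TPM, with the pairs C1qb and C1qa and C4b and C1qc overlapping. Cfb (31.3 ± 2.81) and Cfp (18.7 ± 1.45) were separate from their neighbours, and C3ar1 (8.37 ± 1.96) and C5ar1 (8.28 ± 1.51) were not separable. In NP lungs C3 again averaged highest, at 263 ± 115 TPM, but its range overlapped with that of C1qb (175 ± 50.2). The ranges of C1qa (167 ± 46.3), C1qc (109 ± 37.6) and C4b (99.1 ± 22.2) formed an unbroken run with it. Cfb (39.5 ± 22.6 TPM) was separate from C4b and from Cfp (20.2 ± 4.30), and C5ar1 (12.1 ± 6.89) and C3ar1 (9.89 ± 3.76) overlapped with each other, as C5ar1 did with Cfp.

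**Figure D1:**
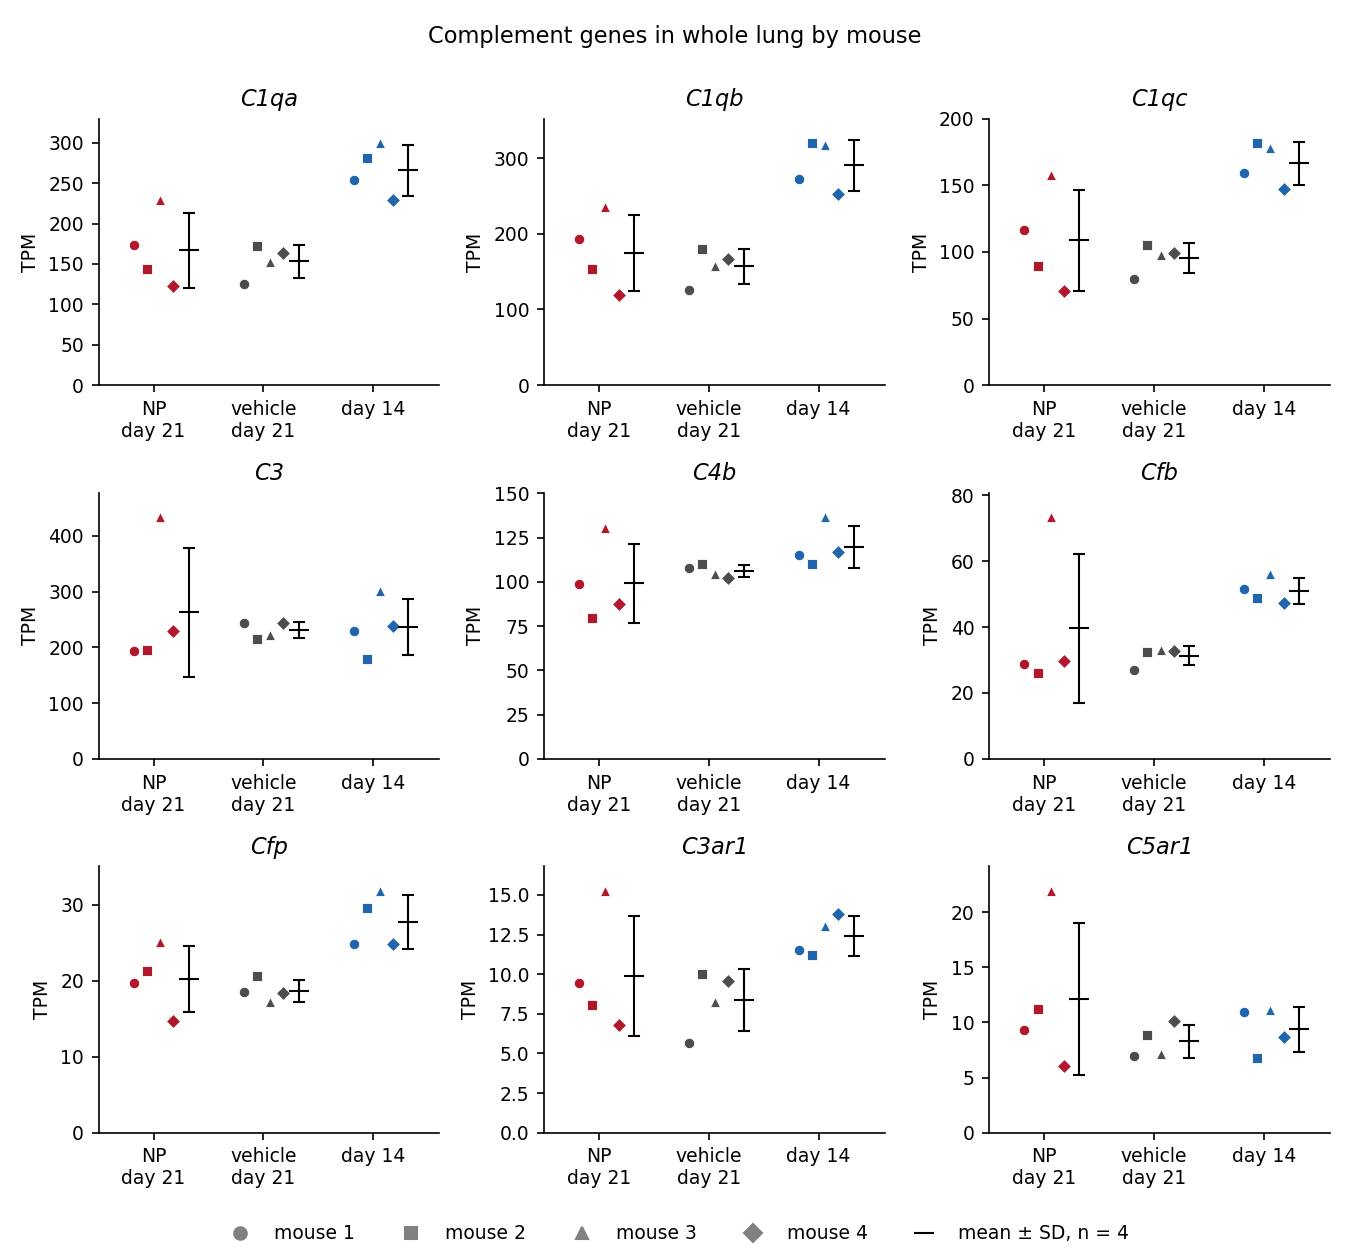
Level of each complement gene in TPM (vertical axes, from 0) in the 4 mice of the NP, vehicle and day 14 groups, with marker shapes for mouse numbers and bars for mean ± SD (n = 4). The C1q genes and Cfp sit lower in vehicle lungs than at day 14, and NP mouse 3 is the highest NP lung for all 9 genes.

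The change without nanoparticles was read from vehicle lungs at day 21 against lungs at day 14. The 3 C1q genes and properdin fell over that week, to between 0.535 and 0.658 of their day 14 level. C3 and C4b did not pass the test, and neither did Cfb, C3ar1 and C5ar1. In edgeR's quasi-likelihood test 4 of the 9 genes passed an adjusted p of 0.05, all downwards, where 6.51% of all genes tested were called lower. The median log2 fold change of the 9 genes was −0.60, against 0.0031 over all genes tested. For 6 of the 9 genes every vehicle library lay below every day 14 library, which held for 10.7% of all genes.

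C1qb had 126, 179, 157 and 167 TPM in vehicle lungs, against 272, 319.9, 318 and 252 TPM at day 14. All vehicle lungs were below all day 14 lungs, and C1qb fell by 0.90 on the log2 scale (SE 0.19, 95% confidence interval −1.31 to −0.49, adjusted p = 0.0133). C1qa had 125, 172, 153 and 163 TPM in vehicle lungs, against 253, 281, 299.8 and 229 TPM at day 14. Again the groups did not overlap, and C1qa fell by 0.81 (SE 0.18, adjusted p = 0.0157). C1qc had 79.4, 105, 97.97 and 99.1 TPM in vehicle lungs, against 159.6, 182, 178 and 147 TPM at day 14. These groups were also separate, and C1qc fell by 0.82 (SE 0.20, adjusted p = 0.0292). The C1qa call did not survive leaving out day 14 replicate 3 (adjusted p = 0.0538) or vehicle replicate 1 (0.0518), and the C1qc call was lost without any of day 14 replicates 1 to 3 or vehicle replicates 1 to 3 (0.0510 to 0.0886). Both were also lost when no filter on low counts was used (0.0567 and 0.0927), while C1qb kept its call without each library in turn (0.0460 at most).

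The 3 chains kept nearly the same proportions while their level moved. Their summed level ran from 312.3 to 622 TPM in NP lungs, from 330.2 to 457 TPM in vehicle lungs and from 628 to 795 TPM at day 14. The ratio of C1qb to C1qa stayed between 0.969 and 1.12 in NP lungs, 1.00 and 1.04 in vehicle lungs and 1.06 and 1.14 at day 14. Its vehicle range lay wholly below its day 14 range, while its NP range overlapped with both. The ratio of C1qc to C1qa stayed between 0.578 and 0.687 in NP lungs, 0.606 and 0.640 in vehicle lungs and 0.593 and 0.648 at day 14. In whole lung RNA, fewer cells of a type and less RNA per cell cannot be told apart. Of 10 interstitial macrophage markers, a list without the C1q genes, 2 were called lower in vehicle lungs than at day 14 and 0 higher, and 3 of the 10 had a higher estimate. The level of this set was mostly Apoe, at 1923 to 2491 TPM in vehicle lungs and 2829 to 3489 TPM at day 14, while the other 9 genes summed to 272.8 to 334 TPM in vehicle lungs and 280.2 to 370.7 TPM at day 14, which overlap. Of 6 general macrophage markers 2 were called lower (Cd68 and Fcgr1) and 0 higher, and without Lyz2, which made up most of their sum, the other 5 summed to 218.5 to 265.3 TPM in vehicle lungs and 321.2 to 338.4 TPM at day 14. Markers of other cells differed between these groups too, with 3 of 7 fibroblast genes called lower and 3 of 8 alveolar type 2 genes called higher. Over all genes tested 6.51% were called lower and 3.79% higher. The part of these cells in the C1q result was not tested.

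In the alternative pathway, properdin fell and factor B showed a difference of similar size that did not pass. Cfp had 18.5, 20.6, 17.1 and 18.4 TPM in vehicle lungs, against 24.8, 29.5, 31.8 and 24.8 TPM at day 14. The groups were separate, and Cfp fell by 0.60 (SE 0.13, interval −0.88 to −0.33, adjusted p = 0.0116), a call that held without each library in turn (adjusted p = 0.0453 at most). Cfb had 27.1, 32.5, 32.9 and 32.8 TPM in vehicle lungs, against 51.4, 48.7, 56.1 and 47.3 TPM at day 14. No vehicle lung reached the lowest day 14 lung, yet the fit gave −0.70 (SE 0.30, interval −1.36 to −0.04, adjusted p = 0.161). All 12 libraries shared 1 estimate of the spread of Cfb, and its NP libraries spread widely. Without NP replicate 3 the Cfb difference between vehicle and day 14 was −0.69 and its adjusted p 0.000575, and with only these 2 groups in the fit the adjusted p was 0.00181. Cfb is therefore called lower in vehicle lungs under those settings and not with all libraries.

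C3, the common point of the pathways, had 244, 215, 222 and 244 TPM in vehicle lungs, against 229, 179.8, 301 and 239 TPM at day 14. The vehicle values lay inside the day 14 range, and the difference was −0.02 (SE 0.23, interval −0.51 to 0.48, adjusted p = 0.969). That interval allows a change of C3 in either direction, and its width includes the spread of the NP libraries. C4b, whose product is cleaved after C1q binds, ranged from 102 to 110.3 TPM in vehicle lungs and from 110.2 to 137 TPM at day 14, with a difference of −0.17 (SE 0.12, adjusted p = 0.371). The receptor gene C3ar1 had 5.65, 9.99, 8.22 and 9.60 TPM in vehicle lungs, against 11.5, 11.2, 13.1 and 13.8 TPM at day 14. Its groups did not overlap, while the difference of −0.56 (SE 0.24) had an adjusted p of 0.154, or 0.0428 without NP replicate 3. With Cfb and C3ar1 added, 6 of the 9 genes were called lower without that library, where 6.97% of all genes were. NP replicate 3 is in neither group of this comparison and bears on it through the shared estimate of spread. It was the highest NP lung for all 9 genes, so the share over all genes is no like baseline. C5ar1 had 6.94, 8.84, 7.17 and 10.2 TPM in vehicle lungs, against 10.96, 6.80, 11.1 and 8.64 TPM at day 14. Those values overlapped, with a difference of −0.32 (SE 0.31, adjusted p = 0.533).

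**Figure D2:**
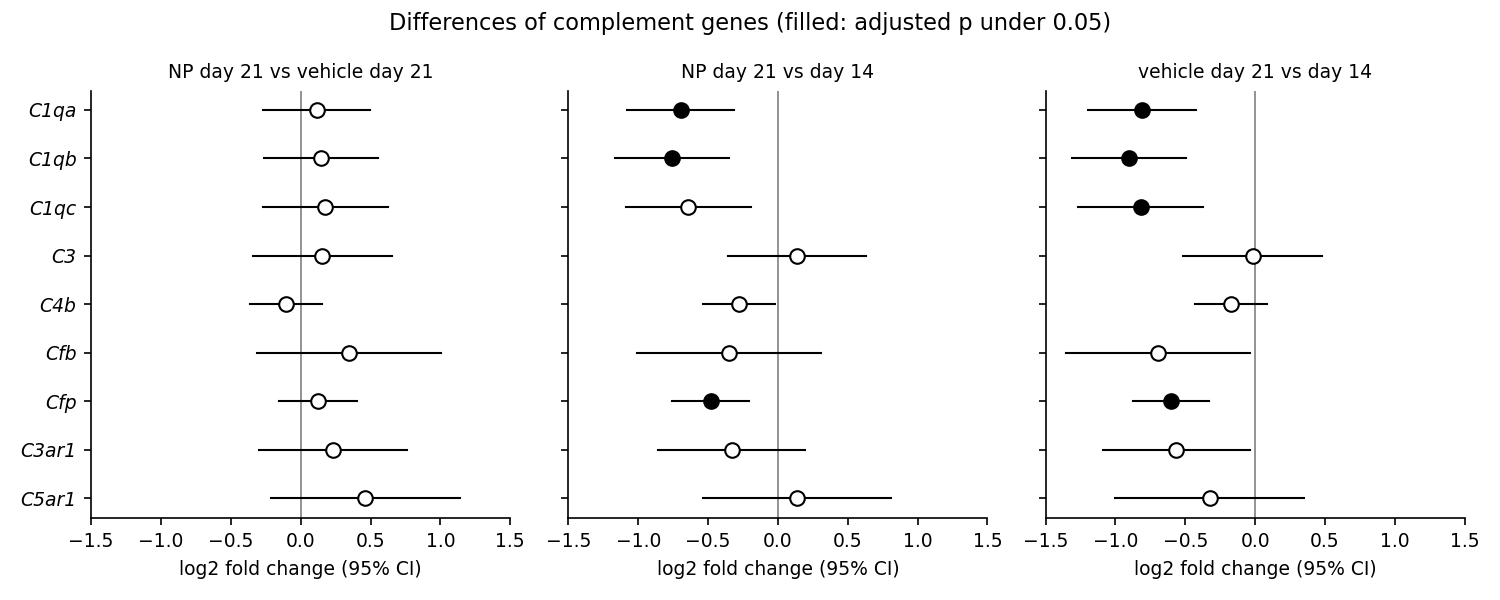
Log2 fold change (horizontal axes) with its 95% confidence interval for each complement gene in 3 comparisons, with filled points for adjusted p under 0.05 in edgeR. Against day 14, 4 genes were called in vehicle lungs and 3 in NP lungs, all lower, and 0 were called between NP and vehicle.

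NP lungs at day 21 against day 14 gave lower C1qa, C1qb and properdin. NP mouse 3 was the highest NP lung for all 9 genes. Through the shared estimate of spread it bears on the intervals of every comparison. C1qb fell by 0.76 on the log2 scale (SE 0.19, adjusted p = 0.0211), C1qa by 0.70 (SE 0.18, adjusted p = 0.0227) and Cfp by 0.48 (SE 0.13, adjusted p = 0.0250). These 3 of the 9 genes passed in edgeR, all downwards, where 8.56% of all genes tested were called lower. The median of the 9 was −0.35, against 0.00622 over all genes. C1qb alone of the 9 had all NP libraries below all day 14 libraries, a state that held for 10.6% of all genes. This comparison and that of vehicle with day 14 share the day 14 libraries.

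C1qb had 194, 153, 235 and 119 TPM in NP lungs, against 272, 319.9, 318 and 252 TPM at day 14. C1qa had 173, 144, 229 and 123 TPM in NP lungs, against 253, 281, 299.8 and 229 TPM at day 14. NP mouse 3 was the highest NP lung for both and reached the lowest day 14 lung in C1qa. C1qc had 117, 89.5, 157 and 70.9 TPM in NP lungs, against 159.6, 182, 178 and 147 TPM at day 14, a difference of −0.64 (SE 0.20, adjusted p = 0.0564). Cfp had 19.7, 21.3, 25.1 and 14.7 TPM in NP lungs, against 24.8, 29.5, 31.8 and 24.8 TPM at day 14. The calls rested on few libraries. C1qa lost its call without any of day 14 replicates 1 to 3 or NP replicates 2 and 4 (adjusted p = 0.0509 to 0.0683), C1qb without day 14 replicate 2 or 3 or NP replicate 2 (0.0550 to 0.0615), and Cfp without day 14 replicate 2 or 3 or NP replicate 1 or 4 (0.0565 to 0.0811).

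C3 had 194, 195, 434 and 229 TPM in NP lungs, against 229, 179.8, 301 and 239 TPM at day 14. Only mouse 3 of the NP group exceeded the day 14 range, and the difference was 0.14 (SE 0.23, interval −0.36 to 0.63, adjusted p = 0.727). Cfb had 28.8, 26.1, 73.4 and 29.8 TPM in NP lungs, against 51.4, 48.7, 56.1 and 47.3 TPM at day 14. NP mouse 3 was above every day 14 lung and the other 3 NP lungs were below every day 14 lung, which gave −0.35 (SE 0.30, adjusted p = 0.463). C3ar1 had 9.46, 8.04, 15.3 and 6.78 TPM in NP lungs, against 11.5, 11.2, 13.1 and 13.8 TPM at day 14 (difference −0.33, SE 0.24, adjusted p = 0.379). It repeated the pattern of Cfb, with mouse 3 above and the others below the day 14 lungs. C5ar1 had 9.28, 11.2, 22.0 and 6.07 TPM in NP lungs, against 10.96, 6.80, 11.1 and 8.64 TPM at day 14 (difference 0.14, SE 0.31, adjusted p = 0.800). C4b ranged from 79.9 to 130.2 TPM in NP lungs and from 110.2 to 137 TPM at day 14, with −0.28 (SE 0.12, adjusted p = 0.134).

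Without NP replicate 3, 7 of the 9 genes were called lower in NP lungs than at day 14, where 8.68% of all genes tested were called lower. That library was the highest NP lung for all 9 genes, so leaving it out had to lower all 9 estimates. The share over all genes is not selected in this way and is no like baseline. Cfb then differed by −0.83 (adjusted p = 0.000506), C1qc by −0.87 (adjusted p = 0.00381), C4b by −0.42 (adjusted p = 0.00626) and C3ar1 by −0.61 (adjusted p = 0.0364). C1qa, C1qb and Cfp kept their calls, at −0.88, −0.93 and −0.59. C3 and C5ar1 did not pass and changed sign, to −0.19 (adjusted p = 0.302) and −0.30 (adjusted p = 0.277). The median of the 9 genes was −0.61 without that library. In that library all 9 neutrophil markers were higher than in any other of the 12 libraries. Of 6 general macrophage markers, 4 were above the other 3 NP lungs and 0 below them. Without Lyz2 that set summed to 354.2 TPM in mouse 3 and 235.5 to 296.3 TPM in the other NP lungs. Interstitial and alveolar macrophage markers were mixed, with 5 of 10 and 5 of 10 above the other NP lungs and 1 and 3 below. Apoe had 3919 TPM in NP mouse 3 and 1961 to 2433 TPM in the other NP lungs, and Chil3, an alveolar macrophage marker, 1888 TPM in NP mouse 3 and 409.8 to 646.1 TPM in the others. Without Apoe the interstitial set summed to 378.8 TPM in mouse 3 and 299.9 to 343.6 TPM in the other NP lungs, and without Chil3 the alveolar set summed to 534.5 TPM in mouse 3, inside the 512.8 to 563.2 TPM of the others. Of 6 markers of mesothelium, the lining of the lung surface, 5 were above the other NP lungs. Of 6 B and T cell, 5 endothelial and 7 dendritic cell markers, 6, 5 and 5 were below the other NP lungs and 0 above. Over all 4 NP lungs against day 14, 0 of 9 neutrophil and 0 of 10 interstitial macrophage markers were called. Of 10 alveolar macrophage markers 2 were called higher and 1 lower, of 7 monocyte markers 3 higher, and of 6 general macrophage and 6 mesothelium markers 1 each lower, where 14.7% of all genes were called. The part of these cells in the levels of NP mouse 3 was not tested.

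**Figure D3:**
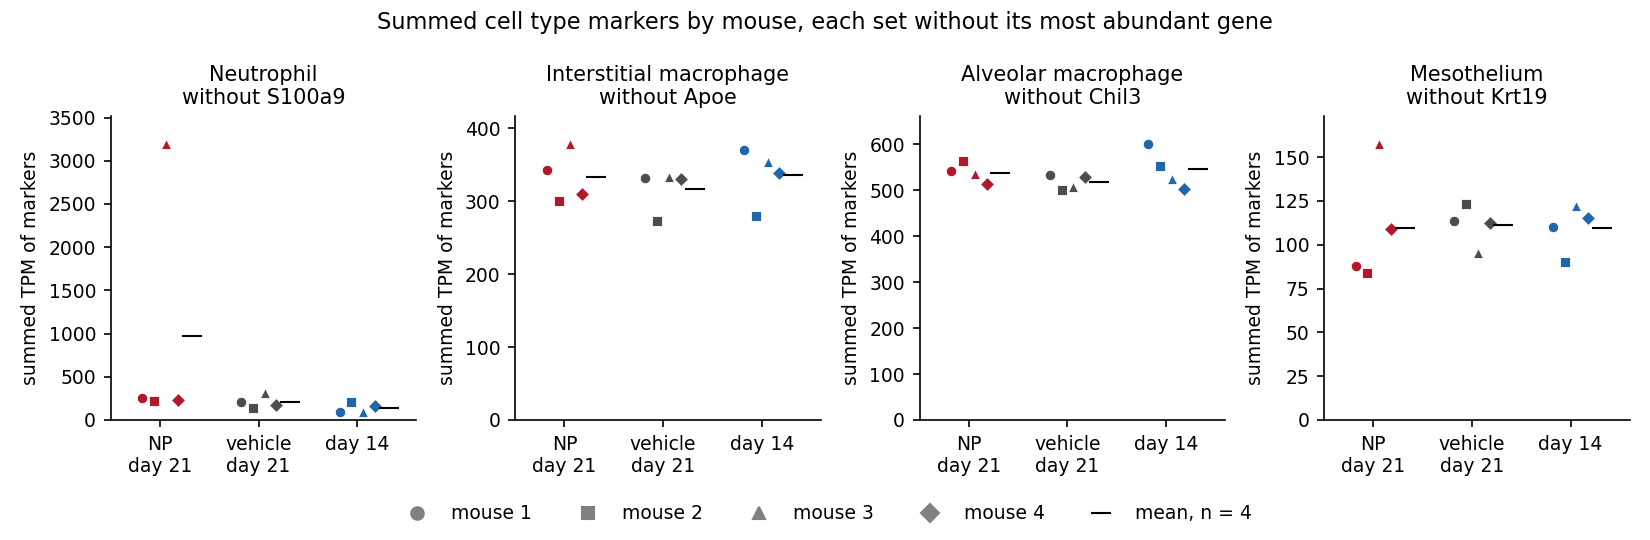
Summed TPM (vertical axes, from 0) of neutrophil, interstitial macrophage, alveolar macrophage and mesothelium markers, each set without its most abundant gene (S100a9, Apoe, Chil3 and Krt19), in each mouse of the NP, vehicle and day 14 groups, with a line for each mean (n = 4). NP mouse 3 stands far above the rest in neutrophil markers (3195 TPM) and lies inside the range of the other NP lungs in alveolar macrophage markers (534.5 TPM).

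NP and vehicle lungs at day 21 were compared to ask what the nanoparticles changed. None of the 9 complement genes passed the test between them, and the 2 groups overlapped for each gene, where 3.55% of all genes did not overlap. In edgeR 0 of 17909 genes passed (0% called, and 0% without NP replicate 3), 762 genes had an unadjusted p under 0.05, and DESeq2 called 19 genes, 0 of them among the 9. Of the 9 genes, 8 were higher in NP lungs as a point estimate, with a median of 0.16 against 0.00202 over all genes. Without NP replicate 3 the median was −0.06, and C1qa, C1qb, C1qc, C3, Cfb and C3ar1 changed sign. As the highest NP lung for all 9 genes, that library had to lower all 9 estimates when left out.

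The intervals show which sizes these data leave possible. C1qb averaged 175 ± 50.2 TPM in NP lungs and 157 ± 23.0 TPM in vehicle lungs, and the difference of 0.15 had an interval of −0.26 to 0.55 on the log2 scale (adjusted p = 0.999). C1qa (0.11, interval −0.27 to 0.50) and C1qc (0.18, interval −0.27 to 0.63) were like it. C3 had 194, 195, 434 and 229 TPM in NP lungs, against 244, 215, 222 and 244 TPM in vehicle lungs. Of the NP lungs, 2 were below and mouse 3 was above all vehicle lungs, and the difference of 0.16 had an interval of −0.34 to 0.65. It was −0.18 without mouse 3. Cfb had 28.8, 26.1, 73.4 and 29.8 TPM in NP lungs, against 27.1, 32.5, 32.9 and 32.8 TPM in vehicle lungs. Its interval ran from −0.31 to 1.01 around 0.35, and its estimate was −0.14 without mouse 3. C5ar1, the C5a receptor gene, had the largest estimate of the 9, 0.46 (interval −0.21 to 1.14), and 0.01 without mouse 3. C4b had the narrowest interval, −0.36 to 0.15 around −0.10, and its estimate was −0.26 without mouse 3. For C4b, 3 NP lungs were below and mouse 3 was above all vehicle lungs.

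**Figure D4:**
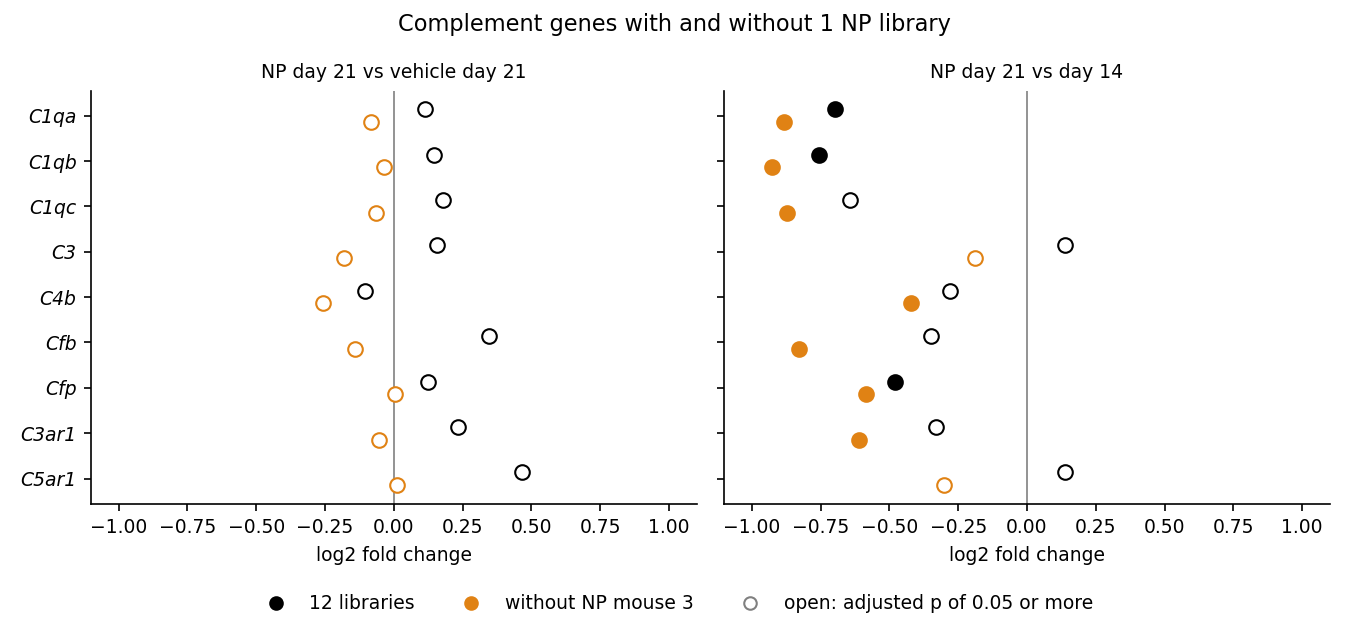
Log2 fold change (horizontal axes) of each complement gene in the comparisons of NP with vehicle and NP with day 14, from all 12 libraries (black) and without NP mouse 3 (orange), filled where adjusted p is under 0.05. Against day 14, 3 genes are called with all libraries and 7 without that library, and against vehicle 0 are called either way.

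The rest of the system was read from 47 further complement genes in 5 roles, 35 of which had enough counts to be tested. Against day 14, 4 of the 35 were called in vehicle lungs, all lower, where 10.3% of all genes were called, and 6 in NP lungs, 2 higher and 4 lower, where 14.7% were called. These shares are near those of all genes, and 0 of the 35 were called between NP and vehicle. Among classical and lectin pathway genes, which include the C1 proteases C1ra and C1s1 and the C4 partner C2, 0 of 9 tested were called against day 14 in either group. Cfd, the protease that cleaves factor B, was not called either, and 0 of 4 tested genes of the terminal pathway, Hc (which encodes C5), C6, C7 and C8g, were called. The median over the 35 was −0.01 for NP against vehicle, −0.09 for NP against day 14 and 0.02 for vehicle against day 14.

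All the calls were among the 13 regulators and 8 receptors tested, which were most of the 35 genes. Against day 14, 4 of 13 regulators and 2 of 8 receptors were called in NP lungs. In vehicle lungs 2 of 13 and 2 of 8 were called. Whether calls gather in these roles was not tested. Clu, encoding clusterin, a secreted chaperone that also blocks the terminal pore, had 255.7 to 328 TPM in NP lungs, 253 to 341 TPM in vehicle lungs and 429 to 499.6 TPM at day 14. It fell by 0.74 in NP lungs (SE 0.11, adjusted p = 0.00147) and by 0.68 in vehicle lungs (SE 0.11, adjusted p = 0.00358) against day 14, and each call held without every library in turn. Cfi, encoding the protease factor I that inactivates C3b and C4b, was at 0.92 to 1.26 TPM in NP lungs, 0.76 to 1.63 TPM in vehicle lungs and 1.64 to 2.03 TPM at day 14. It fell by 0.78 (adjusted p = 0.0237) and 0.81 (adjusted p = 0.0245) in NP and vehicle lungs. Itgax, a chain of complement receptor 4, fell by 0.36 (adjusted p = 0.0279) and 0.39 (adjusted p = 0.0253). C1qbp, a mitochondrial protein that can bind C1q, fell by 0.19 (adjusted p = 0.0415) and 0.23 (adjusted p = 0.0221).

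The membrane regulators Cd46 and Cd55 were called higher in NP lungs. Cd46, a cofactor of factor I that in mice is known mainly from testis, had 2.03 to 2.80 TPM in NP lungs and 1.56 to 2.03 TPM at day 14, a rise of 0.58 (SE 0.13, adjusted p = 0.0130). Cd55, which speeds the decay of C3-cleaving enzymes, rose by 0.25 (SE 0.07, adjusted p = 0.0237). In vehicle lungs they differed from day 14 by 0.38 (adjusted p = 0.0859) and 0.16 (adjusted p = 0.125), Cd46 was called there by DESeq2 (0.0454) and without vehicle replicate 4 (0.0326), and NP and vehicle did not differ beyond the spread (adjusted p = 0.999 for both). Leaving out single libraries ended the calls of Cfi, Itgax, C1qbp and Cd55, and limma on log2(TPM + 1) ended that of Cd46 (adjusted p = 0.0754). For NP against day 14 these libraries were day 14 replicate 4 or NP replicate 1 or 3 for Cfi (adjusted p = 0.0504 to 0.0671), day 14 replicate 1 or 3 or NP replicate 4 for Itgax (0.0663 to 0.0850) and day 14 replicate 1 or 3 or NP replicate 2 or 4 for Cd55 (0.0592 to 0.0779). For vehicle against day 14 they were day 14 replicate 1, 3 or 4 or vehicle replicate 1, 2 or 3 for Cfi (0.0504 to 0.0829) and day 14 replicate 1 or 3 or vehicle replicate 1 or 3 for Itgax (0.0523 to 0.0821). C1qbp lost its call against day 14 without any of 10 libraries in NP lungs (0.0511 to 0.108) and without any of 5 in vehicle lungs (0.0584 to 0.0726). On log2(TPM + 1), limma also ended the Itgax calls in NP and vehicle lungs (adjusted p = 0.0506 and 0.0587). It likewise ended the Cd55 (0.0558) and C1qbp (0.0695) calls in NP lungs and the Cfi call in vehicle lungs (0.0828). On log2(TPM + 0.1) limma ended the Cfi call in NP lungs (0.0638). The fit of 2 groups ended the Cd55 call in NP lungs (0.0524). With no filter on low counts, C1qbp lost its calls in NP (0.103) and vehicle lungs (0.0589).

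**Figure D5:**
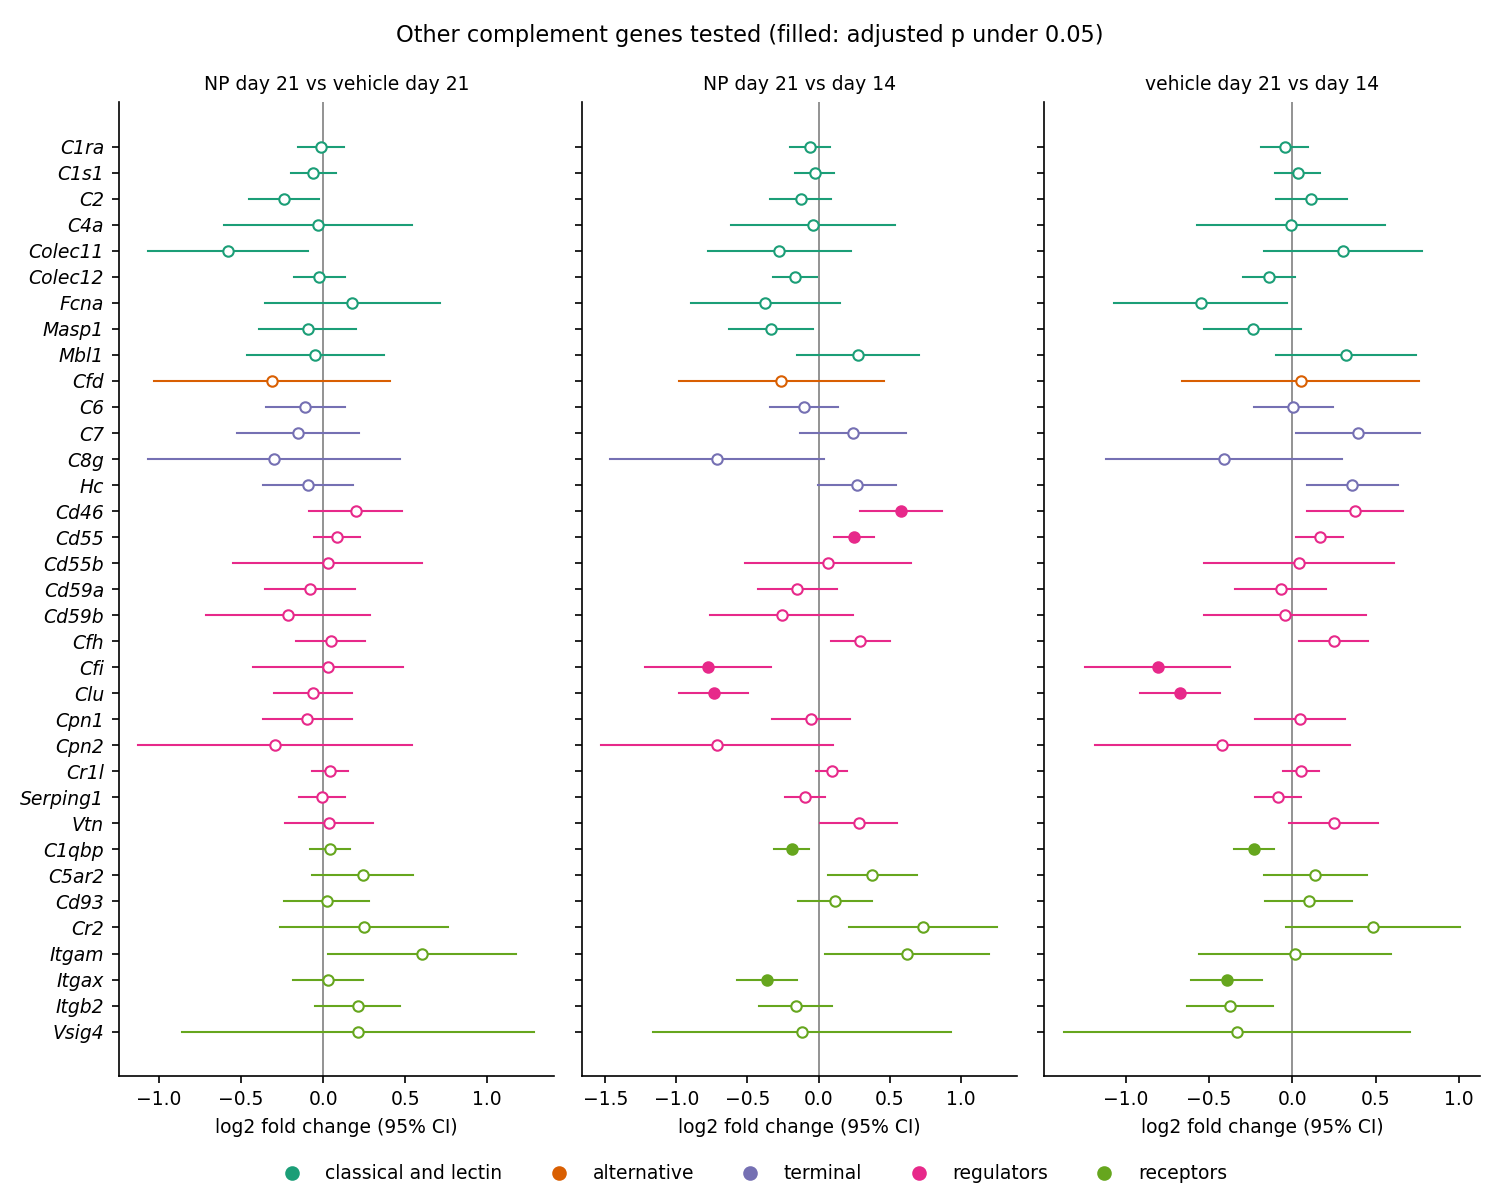
Log2 fold change (horizontal axes) with 95% confidence interval of the 35 other complement genes tested, coloured by role, in the 3 comparisons, filled where adjusted p is under 0.05 in edgeR. Calls are found among the 13 regulators and 8 receptors tested, 6 in NP against day 14 and 4 in vehicle against day 14.

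Genes whose levels followed each of the 9 most closely were picked by Pearson's r of log2 CPM, the library-scaled count, over the 12 libraries, among 13250 candidates. As the highest of many values these r are a description, and they were not computed without NP mouse 3. C1qa and C1qb had the same leading gene, Grn, encoding progranulin of lysosomes, with r of 0.993 and 0.990, and of 0.989 and 0.975 after removing group means. Anxa1 (0.986) and Clec4n (0.986) followed for C1qa, and Clec4n (0.980) and Sh2b2 (0.979) for C1qb. C1qc was followed by Ftl1 (0.981), Grem1 (0.978) and Ms4a6d (0.974). C3ar1 was followed by the lectin genes Clec5a (0.970) and Clec7a (0.960) and by Cd44 (0.953), and Cfp by Sprr1a (0.977), Adam15 (0.973) and Ctsa (0.970). Cfb was followed by Apoe (0.944), one of the interstitial macrophage markers, by Clca3a1 (0.938) and by Rab20 (0.929). C5ar1 was followed by Pygl (0.951), Irak4 (0.932) and Alox5 (0.931), and C4b by Pgs1 (0.921), the mesothelium marker Msln (0.913) and Slc39a2 (0.895). The weakest likeness was that of C3, with Reln (0.874), Plekhm1 (0.871) and Smpd3 (0.868), whose Spearman rho with C3 was 0.629, 0.552 and 0.601. For Pygl, Irak4 and Alox5 with C5ar1 the rho was 0.895, 0.79 and 0.881.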

How the data were processed

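PolyA RNA of all 5 lung lobes, without the large airways, was sequenced with paired reads of 151 bp, per the labels' protocols. Per the submitters' processing notes, STAR 2.7.8a, RSEM 1.3.3 and cutadapt 4.8 were used with GRCm38. Which annotation and strand setting went with them is not given in the sources used here. Deposited expected counts are whole numbers with a total of its own for each library. The deposited TPM values sum to the same total in each library. Reporter and recombinase entries (4, with 0 counts) were left out, and 0 columns had no label.

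Expected counts were tested with edgeR 4.0.16 in R 4.3.3. The filterByExpr filter, with a minimum count of 10 and a minimum total of 15, kept 17909 genes. Libraries were scaled with TMM, and 1 robust quasi-likelihood fit of the 12 libraries with a group term gave 3 two-sided contrasts, with Benjamini-Hochberg adjustment over all genes tested and a threshold of 0.05. TPM levels are given per mouse. The floor of 3 counts stood at 0.0718 to 0.124 CPM and covers counting error only. Among the 18 same-group pairs of libraries, the chi-square over its degrees of freedom lay between 7.97 and 33.2, so no library was a copy of another. It was highest in pairs with day 14 replicate 2 (25.6 to 33.2) and with NP replicate 3 (23.5 to 27.9). All 9 members were named in each comparison. Other complement genes were named where called, and the 3 genes of highest r per member among genes of average log2 CPM of at least 1, without predicted genes and pseudogenes. Alternatives were RLE factors, library totals, DESeq2 1.42.0, other filters, 2-group fits, limma 3.58.1 on log2(TPM + 1) or log2(TPM + 0.1), a replicate block and each library left out. The members and lists were chosen with earlier results of these data known.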

Additional observations from a re-analysis of the deposited data

Results flagged for a closer look

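The NP library of mouse 3 lay far from the other 3 NP libraries for C3 and Cfb. For C3 it had 434 TPM, with 229 TPM in the next NP lung, and the gap in log2 CPM was 0.835 of the range of the group. For Cfb it had 73.4 TPM, with 29.8 TPM in the next, and the gap was 0.859 of the range. Both exceed the 95% critical value of Dixon's test for 4 samples. These were 2 of 27 groups examined, 9 genes in 3 groups, and chance alone flags about 1 group in 20.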

How the results depend on the processing

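The direction of each called fold change of the complement genes held in all 12 fits that left out a library and under the 9 other settings. Without 1 library each, the genes called numbered 1363 to 2934 for NP against day 14 and 719 to 2162 for vehicle against day 14, and 0 to 7 and 2 to 6 of the 9 members. Of these members, 0 were called in NP lungs without day 14 replicate 2 or 3, 1 without NP replicate 2 or 4 and 7 without NP replicate 3, and in vehicle lungs 2 without day 14 replicate 3 or vehicle replicate 1 and 6 without NP replicate 3. NP against vehicle gave 0 genes in each of these fits and 19 with DESeq2. With no filter on low counts, 1 member was called in NP and 2 in vehicle lungs against day 14. For NP against day 14 a fit of 2 groups called 1683 genes, and limma called 1607 on log2(TPM + 1) and 1577 on log2(TPM + 0.1). For vehicle against day 14 limma called 1051 and 995. Cfp in NP lungs lost its call in the fit of 2 groups (adjusted p = 0.0609) and in limma (0.0518 and 0.0515), and C1qc gained one in DESeq2 (0.00847) and in limma on log2(TPM + 1) (0.0486). The cause was not tested.

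Signs turned only where no call was made. C3 in vehicle against day 14 was 0.0032 with library totals, and Cfi in NP against vehicle was −0.050 and −0.064 in limma. Without 1 library each, the log2 differences of NP from vehicle ran from −0.084 to 0.24 for C1qa, −0.035 to 0.29 for C1qb, −0.064 to 0.34 for C1qc, −0.18 to 0.27 for C3, −0.14 to 0.50 for Cfb and −0.055 to 0.37 for C3ar1. Among the other complement genes they ran from −0.0066 to 0.079 for C1qbp, −0.092 to 0.18 for Cfi, −0.15 to 0.00042 for Clu and −0.050 to 0.12 for Itgax. Against day 14 they ran from −0.19 to 0.26 for C3 and −0.30 to 0.36 for C5ar1 in NP lungs, and from −0.10 to 0.089 for C3 in vehicle lungs.

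Mice share only a number across groups. The correlation of same-numbered libraries ran from −0.0744 to 0.148 over 12 pairs, 2 of them over 0.1, and 3 libraries were most like their own number. With a replicate block 0, 2419 and 1673 genes were called for NP against vehicle, NP against day 14 and vehicle against day 14, and 0, 3 and 4 members. The block ended the C1qbp call in NP lungs against day 14 (adjusted p = 0.0568), and C3 in vehicle against day 14 was 0.014. With 4 mice a group, the width of the intervals limits the comparison of NP with vehicle.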

Other observations

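The balance between the complement genes differed between time points, in ratios that were chosen after their values were seen and are given without a test. The ratio of C3 to the summed C1q chains, in TPM, was 0.402 to 0.732 in NP lungs, 0.470 to 0.738 in vehicle lungs and 0.230 to 0.381 at day 14, so that all day 21 lungs were above all day 14 lungs. NP mouse 3, at 0.699, lay inside the range of the day 21 lungs in this ratio. The ratio of Cfb to C3 was 0.131 to 0.169 in NP lungs, 0.111 to 0.151 in vehicle lungs and 0.186 to 0.271 at day 14. NP mouse 3 had the highest ratio of the day 21 lungs, 0.169, and was still below all day 14 lungs. The ratio of C4b to C3 was 0.300 to 0.508 in NP lungs, 0.419 to 0.514 in vehicle lungs and 0.454 to 0.613 at day 14, with overlap between all groups.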
